A study of Mus musculus with 6 samples.

Results

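The 10 genes described here write, read or remove DNA methylation or make the substrate for its removal. They were taken by name from a table of 24062 genes: the methyltransferase genes Dnmt1, Dnmt3a and Dnmt3b, the maintenance factor gene Uhrf1, the dioxygenase genes Tet1, Tet2 and Tet3, the isocitrate dehydrogenase genes Idh1 and Idh2, and the reader gene Mbd2. All 10 had reads, and 9 of them passed the filter on low counts, Tet1 being the exception. The RNA came from mouse lineage-negative blood-forming cells (cells with mature lineage markers removed) turned leukemic by a retrovirus carrying the MLL-AF9 fusion found in human acute leukemia. The 3 libraries labelled A20 KO came from A20 f/f cells and the 3 labelled A20 WT from A20 +/+ cells. Both kinds of donor carried Rosa Cre-ER, a tamoxifen-activated recombinase expressed from a ubiquitous locus, and all samples received 1 µM 4-hydroxytamoxifen for 48 h, with IL-6, IL-3 and SCF in the medium. Nothing in the labels tells whether replicates came from separate cultures or animals, and the p-values therefore reflect only library-to-library spread, possibly technical.

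In mammals, methyl groups are placed on cytosines that precede guanines (CpG). DNMT3A and DNMT3B set new marks, and DNMT1, brought to freshly copied DNA by UHRF1, restores them after replication. TET enzymes oxidise the mark and use 2-oxoglutarate, which IDH1 makes in the cytosol and IDH2 in mitochondria. DNMT3A, TET2, IDH1 and IDH2 are recurrently mutated in human acute myeloid leukemia.

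Libraries held 16113320 to 24168326 reads in the KO-labelled group and 17095581 to 25415274 in the WT-labelled group. Tnfaip3, which encodes A20, went against its label, with 74.1 to 100.1 CPM (reads scaled to a common effective library size) in the KO-labelled libraries against 7.39 to 8.67 CPM in the WT-labelled group. Counts per gene do not separate the floxed exons from the rest, so they do not measure the deletion. Whether the KO and WT labels were exchanged was not tested; an exchange would turn every direction below, each of which is that of the libraries labelled KO. The groups also differed in donor sex by their transcripts (Ddx3y at 78.5 to 89.2 CPM in the KO-labelled and 0 to 0.80 CPM in the WT-labelled group), so sex and label cannot be told apart. In each group the replicate 1 library differed most from its fellows, and both replicate 1 libraries shared a high level of the glycolysis gene Gapdh (2716 CPM in the KO-labelled and 2645 CPM in the WT-labelled one, against 248 to 254 and 167 to 181 CPM in replicates 2 and 3). KO-labelled replicates 2 and 3 lay close together (chi-square per degree of freedom 2.37, against 79.7 and 94.5 to replicate 1). The p-values of fits on replicates 2 and 3 alone therefore rest on a small spread in that group. The leukocyte gene Ptprc had 507 to 598 CPM in the KO-labelled and 214 to 433 CPM in the WT-labelled group, and the myeloid factor gene Spi1 204 to 265 and 150 to 197 CPM. Both belong to a list of 10 myeloid genes, all detected, of which 2 were called higher, 2 lower and 6 not called. That is 40% called, beside 27.3% of all tested genes (13.7% higher and 13.7% lower). The progenitor genes Mpo (0.43 ± 0.21 against 200.05 ± 86.2 CPM, KO-labelled against WT-labelled) and Kit (102 ± 1.36 against 353 ± 48.0 CPM) were lower. The monocyte and macrophage gene Csf1r (207 ± 126 against 24.8 ± 19.0 CPM) and the Fc receptor gene Fcgr3 (487 ± 83.3 against 81.8 ± 48.5 CPM) were higher. Lyz2, the lysozyme gene of maturing myeloid cells, had 736 ± 245 and 1613 ± 1254 CPM and did not pass. The globin genes Hba-a1, Hbb-bs and Hbb-bt, the T cell gene Cd3e, the B cell gene Ms4a1 and the mast cell gene Cma1 had no read in any library. Other markers of such cells had reads. Cd4 was called higher, with 129 reads in the KO-labelled group (103 in replicate 1) against 2 in the WT-labelled group. The stromal gene Pdgfrb (215 against 25 reads) was also called higher. Epor (16 against 56 reads), Cd79b (22 against 123) and Mcpt8 (285 against 1122) were called lower. Klf1, Ms4a2 and Col1a1 did not pass. Summed marker levels were 36.3 to 123 CPM in the KO-labelled and 43.9 to 53.1 CPM in the WT-labelled group for 5 megakaryocyte genes, of which Itga2b, Gp9 and Pf4 fell. Vwf, of the same list, made up most of the KO-labelled sums and did not pass. It had 35.2 to 122 CPM in the KO-labelled and 2.80 to 26.2 CPM in the WT-labelled group. For 6 mast cell and basophil genes the sums were 3.65 to 6.45 and 14.7 to 25.5 CPM, and for 6 stromal genes 3.15 to 5.61 and 0.83 to 2.09 CPM. For 9 lymphoid genes they were 1.02 to 5.32 and 1.92 to 2.30 CPM, and for 7 erythroid genes 1.19 to 1.95 and 1.19 to 2.17 CPM. The part of these myeloid and other markers in the results below was not tested. In bulk RNA, fewer cells of a type and less RNA per cell cannot be told apart.

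Dnmt3b and Idh2 fell in the KO-labelled libraries, and the other 7 tested genes did not pass the test. Dnmt3b, a methyltransferase that sets new marks, was at 0.28 of its WT-labelled mean, and Idh2 at 0.63 of its WT-labelled mean. Neither Dnmt3a nor Dnmt1 passed, and no TET gene did. Thus 2 of 9 tested genes were lower and 0 higher, beside 27.3% of the 12126 genes tested in the whole table (13.7% lower and 13.7% higher), where a call is a Benjamini-Hochberg adjusted p under 0.05 from edgeR's quasi-likelihood fit. None of the 9 was higher at an unadjusted p under 0.05 either, and DESeq2 and limma-voom also called 0 higher and 2 lower. The share of all tested genes called was 33.8% by DESeq2, 27.2% by limma-voom, 24.8% with library totals, 27.5% with upper-quartile scaling and 19.4% with no low-count filter, each with 2 of the 10 genes lower. It was 16.7% with a replicate block and 8.44% with replicates 2 and 3 summed, each with 1 of the 10 genes lower. Without KO-labelled replicate 1, 2 or 3 it was 18.4%, 15% and 15.4%, again with 1 lower, and without WT-labelled replicate 1, 2 or 3 it was 42.8%, 19.8% and 20%, with 2, 2 and 3 lower. The share of 22.2% among the 9 genes was not above that background. The median log2 fold change was -0.08 for the 9 genes and -0.04 for all tested genes.

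**Figure D1:**
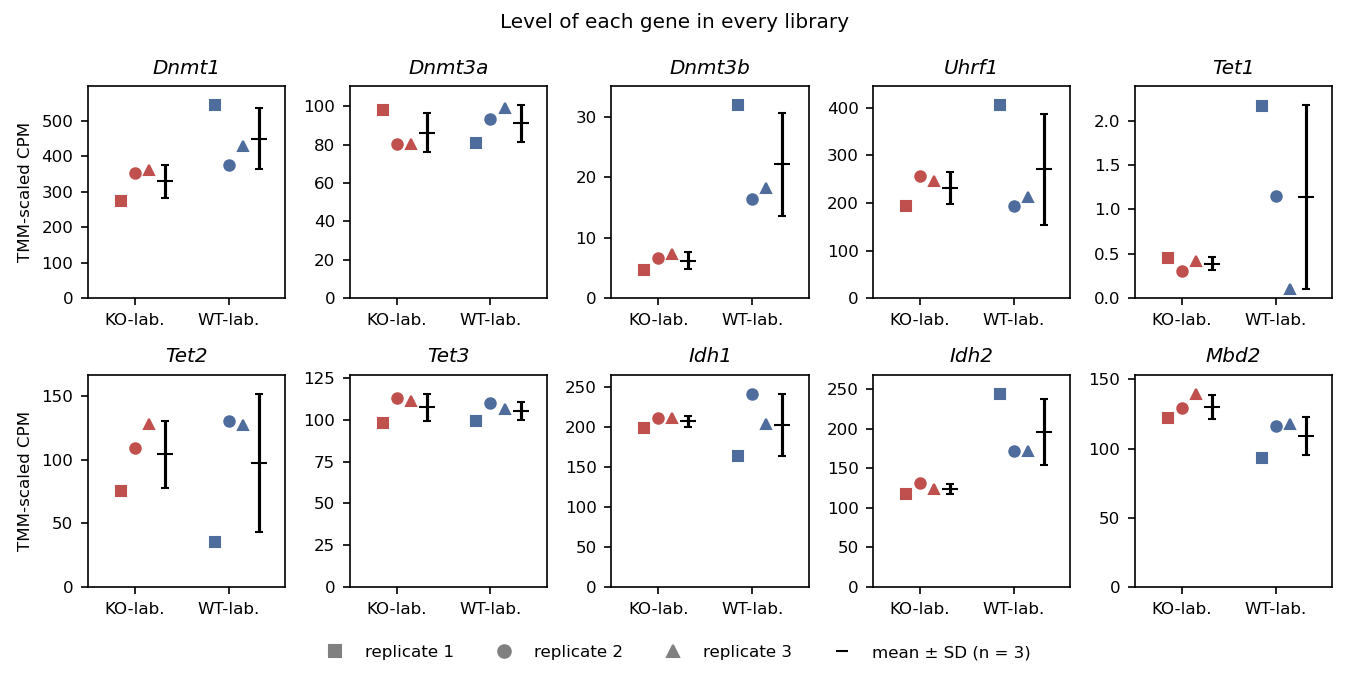
TMM-scaled CPM of the 10 genes in each library, KO-labelled on the left and WT-labelled on the right of each panel, with marker shape giving the replicate and bars the mean ± SD of 3 libraries. All KO-labelled points lie below all WT-labelled points for Dnmt3b (4.60 to 7.28 against 16.4 to 31.9 CPM) and Idh2, and the WT-labelled replicate 1 library is apart from its group for Uhrf1 and Tet2.

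Dnmt3b spans bases 153649450 to 153687730 of chromosome 2 (mm10, plus strand) in 24 merged exons. It had 4.60, 6.67 and 7.28 CPM in the KO-labelled group, against 31.9, 16.4 and 18.2 CPM in the WT-labelled group. The groups did not overlap, and the WT-labelled replicate 1 library was the highest of the 6. The means were 6.18 ± 1.41 and 22.2 ± 8.51 CPM (SD, n = 3 each), from 378 and 1416 reads in all. On the log2 scale the difference was -1.84 (SE 0.32, 95% interval -2.60 to -1.09), with an adjusted p of 0.0061 from edgeR's quasi-likelihood test. The gene was called lower in all 14 alternatives tried, with adjusted p up to 0.047. Without the replicate 1 libraries of both groups the log2 fold change was smaller, at -1.33 (SE 0.15; edgeR adjusted p = 5.9e-04). Of its 31-base words, 13.5% also occur in transcripts of Dnmt3c, a neighbouring copy that methylates young transposons in mouse male germ cells, and how reads matching both were counted is not given in the sources used here.

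Idh2 lies on chromosome 7 at 80094846 to 80115392, on the minus strand. It had 117, 131 and 124 CPM in the KO-labelled group, against 244, 172 and 172 CPM in the WT-labelled group. Here too the groups did not overlap, and the KO-labelled libraries varied little among themselves. The means were 124 ± 6.75 and 196 ± 41.5 CPM, a log2 difference of -0.66 (SE 0.17; edgeR adjusted p = 0.027). Omitting a single KO-labelled library ended the Idh2 call, with edgeR adjusted p of 0.097, 0.082 and 0.099 without replicates 1, 2 and 3. It was also lost with replicates 2 and 3 summed into 1 sample per group (0.14), whereas replicates 2 and 3 alone gave -0.45 (adjusted p = 0.0021).

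Idh1, the cytosolic enzyme gene on chromosome 1 (65158616 to 65186500), did not pass. It had 199, 212 and 211 CPM in the KO-labelled group, against 164, 241 and 204 CPM in the WT-labelled group. The KO-labelled values lay within the WT-labelled range, and the log2 fold change was 0.03 (95% interval -0.35 to 0.41; edgeR adjusted p = 0.91). Per kilobase, the level of Idh2 relative to Idh1 was 0.63, 0.66 and 0.63 in the KO-labelled group, against 1.59, 0.76 and 0.91 in the WT-labelled libraries. That ratio did not overlap between the groups (exact two-sided permutation p = 0.1, the smallest that 3 against 3 libraries allow).

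The stretches before the annotated starts of both genes that fell, and of Uhrf1, are printed below to show what precedes a gene that changed and a gene that did not pass. They come from RefSeq promoter windows on GRCm38.p6 (the assembly also called mm10), are given 5′ to 3′ on the gene's strand, and end before the first GENCODE exon. Capitals mark matches on either strand to the GC box letters GGGCGG or to an E2F motif (TTCCCGC or TTGGCGC), the site of the E2F factors that act at S phase.
Dnmt3b, chr2:153649199-153649448, plus strand: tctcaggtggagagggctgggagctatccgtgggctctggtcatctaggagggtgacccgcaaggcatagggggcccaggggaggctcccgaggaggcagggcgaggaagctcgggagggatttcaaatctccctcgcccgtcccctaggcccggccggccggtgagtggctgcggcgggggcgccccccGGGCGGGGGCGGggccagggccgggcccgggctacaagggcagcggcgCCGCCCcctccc
Idh2, chr7:80115393-80115600, minus strand: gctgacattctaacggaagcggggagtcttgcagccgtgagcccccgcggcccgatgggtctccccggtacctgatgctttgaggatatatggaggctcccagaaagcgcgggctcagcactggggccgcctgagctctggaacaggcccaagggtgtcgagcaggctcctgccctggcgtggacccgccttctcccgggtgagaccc
Uhrf1, chr17:56303087-56303320, plus strand: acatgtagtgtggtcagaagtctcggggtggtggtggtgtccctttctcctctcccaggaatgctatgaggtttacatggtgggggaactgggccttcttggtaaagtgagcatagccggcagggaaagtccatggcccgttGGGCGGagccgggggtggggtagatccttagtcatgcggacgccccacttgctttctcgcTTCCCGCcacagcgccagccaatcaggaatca

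The printed stretches, of 250, 208 and 234 bases, hold 21, 14 and 10 CpG in the order shown. Uhrf1 has another window, not printed, with 33 CpG, 3 GGGCGG matches and 0 E2F matches. Over 15 windows of 9 of the 10 genes (250 bases before a start and 50 after it, several starts for some genes), the CpG count ranged from 2 at a Dnmt1 start to 57 at Tet2, beside a median of 7 over 32851 windows of all genes. The full Dnmt3b window held 30, more than in 88.3% of all windows. GGGCGG occurred in 13 of the 15 windows and in 35.7% of all. TTCCCGC occurred in 1 of the 15, at Uhrf1 (4.6% of all windows), and TTGGCGC in 1, at Dnmt1 (2.45%). A κB motif, GGGA and TTCC separated by any 2 bases, occurred in 0 of the 15 windows and in 1.47% of all. In the Idh2 window both GGGCGG matches lie outside the printed stretch. These matches describe letters in the windows, and binding was not measured.

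Among the writers of new marks, the fall of Dnmt3b stood beside little difference in Dnmt3a. Dnmt3a, on chromosome 12 at 3806007 to 3914443, had 97.9, 80.4 and 80.2 CPM in the KO-labelled group, against 80.7, 93.4 and 99.1 CPM in the WT-labelled group. The groups overlapped over most of their range. Its log2 fold change was -0.08 (95% interval -0.41 to 0.25; edgeR adjusted p = 0.72). In replicates 2 and 3 alone it was -0.28 (SE 0.07; adjusted p = 0.019), and with those replicates summed it was 0.04. The per-kilobase level of Dnmt3b relative to Dnmt3a was 0.15, 0.27 and 0.30 in the KO-labelled group, against 1.29, 0.57 and 0.60 in the WT-labelled libraries. No library of either group reached the range of the other (exact two-sided permutation p = 0.1, the smallest possible). As with Idh2 to Idh1 and Dnmt3l to Dnmt3a, the ratio sets a called gene over a gene not called, so it adds no separate evidence.

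Dnmt3l, which encodes a cofactor without catalytic activity that binds and stimulates both DNMT3 enzymes, rose. It had 29.6, 31.7 and 33.8 CPM in the KO-labelled group, against 6.55, 12.8 and 8.49 CPM in the WT-labelled group. Its log2 difference was 1.78 (SE 0.25; edgeR adjusted p = 0.0029), and it was called higher in all 14 alternatives. Per kilobase, the level of Dnmt3l relative to Dnmt3a was 2.08 ± 0.35 in the KO-labelled and 0.56 ± 0.17 in the WT-labelled libraries (SD, n = 3 each; exact permutation p = 0.1).

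Dnmt1, the maintenance methyltransferase gene (chromosome 9, 20907209 to 20959888), had 275, 353 and 360.4 CPM in the KO-labelled group, against 544, 376 and 429 CPM in the WT-labelled group. Every KO-labelled library lay below every WT-labelled library, yet the gap between the nearest libraries was small. The log2 fold change was -0.45 (SE 0.19, 95% interval -0.91 to 0.006; edgeR adjusted p = 0.13), and it passed in 0 of 14 alternatives. Together with Dnmt3b, Idh2 and Mbd2 it made 4 of 9 tested genes without overlap between the groups, beside 47.6% of all tested genes.

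Uhrf1, whose protein recognises hemimethylated CpG left by replication, had 192, 256 and 246 CPM in the KO-labelled group, against 405, 194 and 212 CPM in the WT-labelled group. The groups overlapped, and the WT-labelled replicate 1 library alone was above all others. The log2 fold change was -0.22 (SE 0.30; edgeR adjusted p = 0.62). Without WT-labelled replicate 1 the direction turned to 0.19 (edgeR adjusted p = 0.32). In replicates 2 and 3 alone Uhrf1 was called higher, at 0.29 (SE 0.07, edgeR adjusted p = 0.017), a fit whose KO-labelled libraries lay close together. Per kilobase, Uhrf1 relative to Dnmt1 was 1.22 ± 0.038 in the KO-labelled and 1.01 ± 0.24 in the WT-labelled group. That ratio overlapped between the groups (exact two-sided permutation p = 0.4). Uhrf1 spans bases 56303321 to 56323486 of chromosome 17. Of its 31-base words, 24.2% occur in transcripts of other genes, such as the gene model Gm5648. The share of its reads that this affects was not measured.

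Dnmt1 and Uhrf1 are expressed with DNA replication in dividing cells, and replication genes showed a like spread over the libraries. The 21 replication genes listed summed to 2543, 3379 and 3275 CPM in the KO-labelled group, against 5791, 3458 and 3594 CPM in the WT-labelled group. The 12 mitosis genes summed to 1514, 2294 and 2272 CPM in the KO-labelled group, against 3142, 2537 and 2713 CPM in the WT-labelled group. Replicate 1 was the highest of the WT-labelled and the lowest of the KO-labelled libraries in both sums, as it was for Dnmt1, Uhrf1 and Dnmt3b. In the WT-labelled group, replicate 1 over the mean of replicates 2 and 3 was 1.35 for Dnmt1, 1.99 for Uhrf1, 1.85 for Dnmt3b, 1.42 for Idh2 and 1.64 for the replication sum. In the KO-labelled group the same quotients were 0.77, 0.77, 0.66, 0.92 and 0.76. A high WT-labelled quotient was not confined to replication genes. It was 1.747 for the methyl donor, 1.507 for the 2-oxoglutarate and 1.421 for the writer partner sums (lists described below). The mitosis sum had 1.197, the sum of other readers 1.097 and that of mark removal and repair 0.7785. In the KO-labelled group these sums had, in the same order, 0.932, 1.042, 0.8744, 0.6632, 0.9864 and 0.9294. The part of proliferation in the differences of these genes was not tested.

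**Figure D2:**
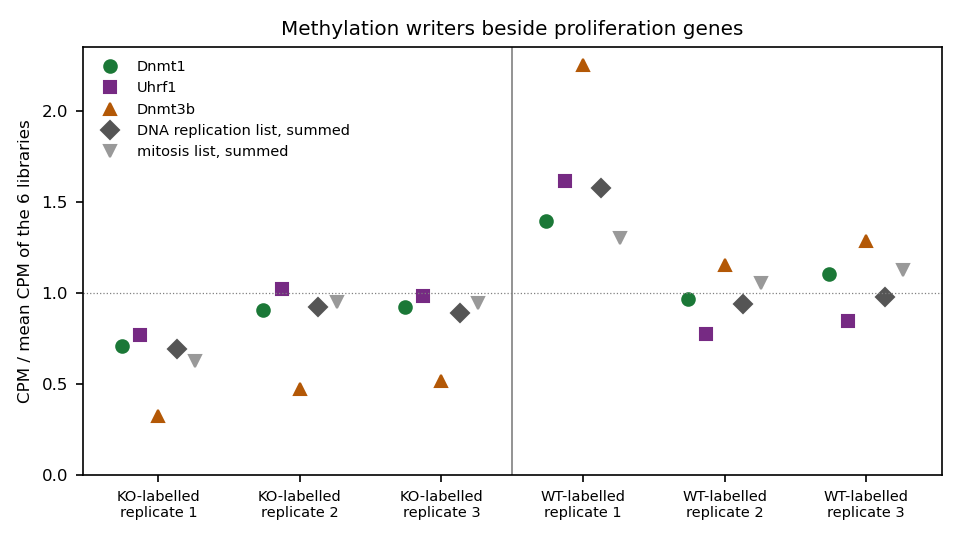
CPM of Dnmt1, Uhrf1 and Dnmt3b and summed CPM of the replication and mitosis lists in each library, each divided by its own mean over the 6 libraries, with KO-labelled libraries left of the line. WT-labelled replicate 1 is the highest library and KO-labelled replicate 1 the lowest in all 5 series, and Dnmt3b (4.60 to 7.28 CPM in KO-labelled libraries) separates the groups most widely.

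Of the replication genes 2 rose and 0 fell of 21 tested. The 9.52% called by edgeR stood beside 27.3% of all tested genes. At an unadjusted p under 0.05, 3 were higher and 8 lower, beside 2371 and 2459 of all 12126 tested genes. DESeq2 called 3 higher and 5 lower, beside 33.8% of all tested genes. With limma-voom 2 were higher and 0 lower, beside 27.2%. The list median was -0.48. The 2 that rose encode E2F activators: E2f1 had 69.0 ± 4.54 and 49.3 ± 4.79 CPM in the KO-labelled and WT-labelled libraries (edgeR adjusted p = 0.027), and E2f2 had 73.4 ± 8.02 and 42.6 ± 11.1 CPM (adjusted p = 0.033). Both calls were lost without any single library other than WT-labelled replicate 1, with adjusted p up to 0.10. Each held in 7 of 14 alternatives. Of the 12 mitosis genes 0 passed in either direction by edgeR, 4 were lower at an unadjusted p under 0.05, and DESeq2 called 1 and limma-voom 0 lower, beside 27.3%, 33.8% and 27.2% of all tested genes called by edgeR, DESeq2 and limma-voom. The 2 most abundant were Top2a, a topoisomerase gene, with 518 ± 114 and 769 ± 126 CPM, and Mki67, the Ki-67 gene, with 427 ± 118 and 595 ± 69.9 CPM in the KO-labelled and WT-labelled libraries.

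No TET gene passed the test, and Tet2 varied more within the WT-labelled group than between groups. Tet2, on chromosome 3 at 133463679 to 133545139, had 75.8, 109 and 128 CPM in the KO-labelled group, against 35.2, 131 and 127 CPM in the WT-labelled group. WT-labelled replicate 1 was far below all other libraries, and the log2 fold change was 0.09 with it and -0.30 without it (edgeR adjusted p = 0.91 and 0.27). In that library the level of Tet2 was 0.27 of the mean of WT-labelled replicates 2 and 3. The 10 myeloid genes checked summed to 1769 CPM there, against 4929 and 4237 CPM in the other WT-labelled libraries. Most of that gap lay in Lyz2, with 243 CPM there against 2705 and 1889 CPM, while Mpo went the other way, with 299 CPM there against 142 and 158 CPM.

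Tet3 varied little over the 6 libraries. It had 98.3, 113 and 111 CPM in the KO-labelled group, against 99.6, 110.0 and 107 CPM in the WT-labelled group. The groups covered nearly the same range, and the 95% interval of the log2 fold change was -0.24 to 0.30 (edgeR adjusted p = 0.88). Per kilobase, Tet2 relative to Tet3 was 0.95 ± 0.19 in the KO-labelled and 0.90 ± 0.48 in the WT-labelled group, with overlap between the groups. Tet1 was near the floor of detection, with 10, 7 and 7 reads in the KO-labelled group, against 52, 20 and 2 reads in the WT-labelled libraries. That is 0.30 to 0.45 CPM and 0.10 to 2.17 CPM, where 3 reads correspond to 0.13 to 0.18 CPM. With no filter on low counts the Tet1 log2 fold change was -1.54 (SE 0.90; edgeR adjusted p = 0.29), and without WT-labelled replicate 3, the library with 2 reads, it was -2.08 (adjusted p = 0.038).

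Mbd2, a reader that binds methylated CpG and recruits the NuRD repressor complex, had 122, 130 and 139 CPM in the KO-labelled group, against 93.2, 116 and 118 CPM in the WT-labelled group. The KO-labelled libraries were all above the WT-labelled ones, by a margin smaller than the spread within either group. The log2 fold change was 0.26 (95% interval -0.06 to 0.58; edgeR adjusted p = 0.21). It kept a positive sign in all 14 alternatives and passed in 0 of them.

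**Figure D3:**
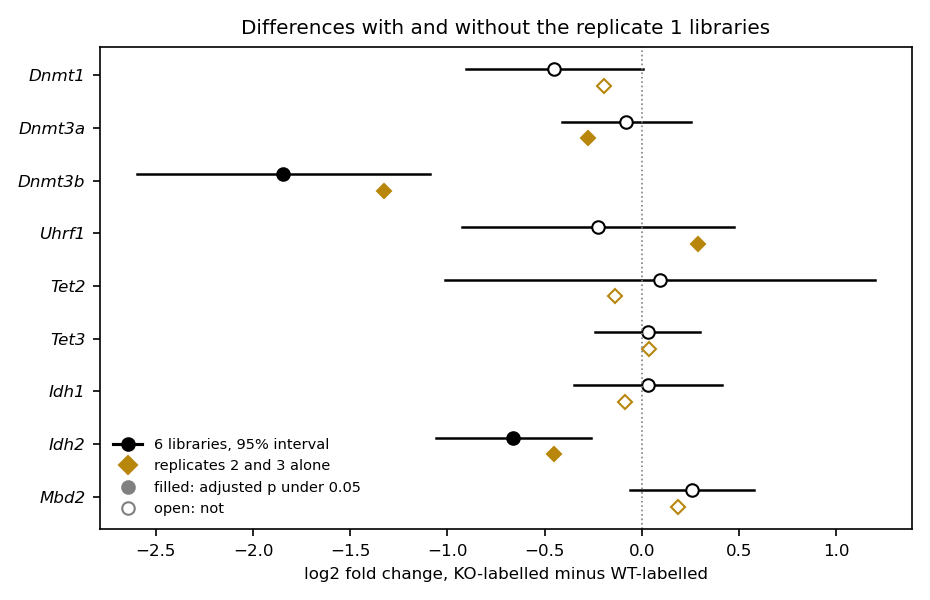
Log2 fold change, KO-labelled minus WT-labelled, of the 9 tested genes over 6 libraries (circles, with 95% intervals) and in replicates 2 and 3 alone (diamonds), filled where the adjusted p is under 0.05. Dnmt3b (-1.84 and -1.33) and Idh2 (-0.66 and -0.45) are filled in both, and Dnmt3a and Uhrf1 only as diamonds.

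With the replicate 1 libraries left out, 3 of the 9 genes were called lower (Dnmt3a, Dnmt3b and Idh2) and 1 higher (Uhrf1), beside 52.9% of 12201 tested genes in that fit. In that setting Dnmt1 had a log2 fold change of -0.19 (edgeR adjusted p = 0.11).

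Per kilobase of merged exons, the 10 genes fell into 3 tiers. In the KO-labelled libraries Idh1 led with 74.9 ± 2.54 RPKM (CPM divided by exon length in kilobases), followed by Uhrf1 (54.3 ± 8.01), Idh2 (47.9 ± 2.61), Dnmt1 (44.7 ± 6.39) and Mbd2 (40.5 ± 2.70), of which each neighbouring pair from Uhrf1 to Mbd2 overlapped between libraries. A second tier held Tet3 (6.44 ± 0.48 RPKM), Tet2 (6.18 ± 1.57) and Dnmt3a (5.18 ± 0.61), whose neighbours also overlapped. Dnmt3b (1.21 ± 0.28 RPKM) and Tet1 (0.025 ± 0.005) came last, each apart from its neighbour. In the WT-labelled libraries Idh2 (75.7 ± 16.1 RPKM), Idh1 (73.3 ± 13.9), Uhrf1 (63.5 ± 27.4) and Dnmt1 (61.0 ± 11.7) overlapped in sequence, and Mbd2 (33.9 ± 4.26) lay below Dnmt1. Dnmt3b (4.34 ± 1.67 RPKM) there overlapped with Dnmt3a (5.47 ± 0.57), while Tet1 (0.074 ± 0.067) was again last. Merged exons of all annotated transcripts come to 16642 bases for Dnmt3a, 16870 for Tet2 and 16695 for Tet3, which lowers their level per kilobase where shorter transcripts are used.

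**Figure D4:**
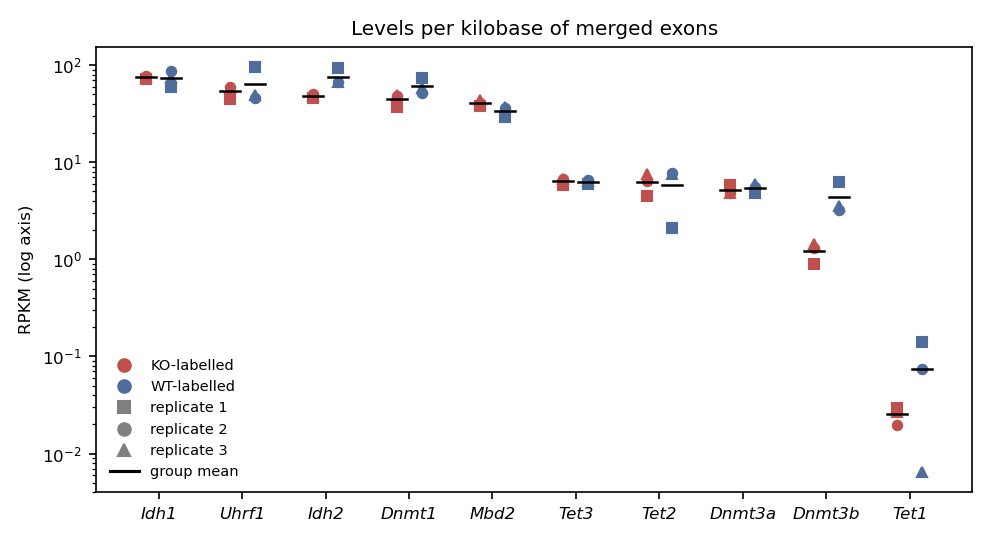
RPKM of the 10 genes on a log axis, ordered by KO-labelled mean, with KO-labelled libraries left and WT-labelled libraries right at each gene; marker shape gives the replicate and bars the group mean. Idh1, Uhrf1, Idh2, Dnmt1 and Mbd2 form the upper tier, and Dnmt3b (1.21 against 4.34 RPKM) shows the widest gap between groups among genes above Tet1.

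Over the 6 libraries, the tested genes whose profile lay nearest to that of Dnmt3b (Euclidean distance of mean-centred log2 CPM among 12126 genes) were Klhl23 (0.19), Entpd5 (0.30) and Hmgn1 (0.34). Entpd5 had 11.8 ± 1.23 CPM in the KO-labelled and 40.7 ± 14.3 CPM in the WT-labelled group, and Hmgn1, a nucleosome-binding protein gene, 41.6 ± 6.33 and 147 ± 34.4 CPM. The log2 fold change of Klhl23 was -1.78. These 3 genes were picked for their likeness, which rests mainly on the difference between the groups.

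Around the 10 genes, 98 further genes of the same biology were listed by role, of which 73 were tested, 6 rose and 10 fell (21.9%, beside 27.3% of all tested genes). Among 14 partners of the writers, 2 rose, 3 fell and 9 did not pass, with a median log2 fold change of -0.17. Besides Dnmt3l, Setdb1, a histone H3 lysine methyltransferase gene that works with TRIM28 at transposons, rose to 145 ± 19.6 CPM in the KO-labelled group, against 76.1 ± 3.92 CPM in the WT-labelled group (edgeR adjusted p = 0.0033). Zfp57, a zinc-finger gene whose protein holds methylation at imprinted regions in mouse embryos, had 0.50, 0.56 and 0.48 CPM in the KO-labelled group, against 4.92, 8.55 and 7.10 CPM in the WT-labelled group. Its log2 fold change was -3.72 (SE 0.35; adjusted p = 4.6e-04), and it was called in all 14 alternatives. Hells, a chromatin remodeller gene needed for normal methylation of repeats, fell to 70.8 ± 14.0 CPM in the KO-labelled group, against 134 ± 42.4 CPM in the WT-labelled group (adjusted p = 0.035). The Hells call was lost without any KO-labelled library or WT-labelled replicate 2 (adjusted p = 0.056 to 0.12), and held in 8 of 14 alternatives. The third that fell, Cdca7l (adjusted p = 0.047), was named after its value was seen. The Setdb1 call was lost with replicates 2 and 3 summed (0.067).

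Among 13 other readers of CpG, methylated or not, 2 rose and 2 fell, with a median of -0.07. The share called was 30.8%, near the 27.3% of all tested genes. The zinc-finger readers Zbtb4 (26.5 ± 4.53 against 7.73 ± 3.93 CPM, KO-labelled against WT-labelled) and Zbtb38 (49.0 ± 3.14 against 29.5 ± 5.22 CPM) rose. Zbtb33, which encodes the reader Kaiso, fell to 27.6 ± 2.17 CPM in the KO-labelled group, against 41.8 ± 3.67 CPM in the WT-labelled group. Mbd4, a reader that also excises thymine from deaminated sites, fell to 18.4 ± 2.63 CPM, against 30.9 ± 6.58 CPM. Their edgeR adjusted p ran from 0.015 for Zbtb33 to 0.033 for Mbd4, and each lost its call without at least 1 library. For Zbtb4 these were KO-labelled replicate 1 and WT-labelled replicate 2 (adjusted p = 0.075 and 0.053), for Zbtb33 and Zbtb38 KO-labelled replicates 2 and 3 (0.058 to 0.082), and for Mbd4 every library except WT-labelled replicate 1 (0.068 to 0.11). Of 14 alternatives, 10 called Zbtb4, 10 Zbtb33, 11 Zbtb38 and 6 Mbd4.

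Among 16 genes of mark removal, TET regulation and base repair, 12 were tested, 2 rose and 2 fell. The share called of those tested was 33.3%, beside 27.3% of all tested genes. Cxxc5, a zinc-finger protein gene that binds unmethylated CpG, was nearly lost, with 0.14, 0.39 and 0.54 CPM in the KO-labelled group, against 47.2, 29.1 and 22.1 CPM in the WT-labelled group. Its log2 fold change was -6.55 (SE 0.51; edgeR adjusted p = 2.2e-04), the largest of the 73 tested genes, and it was called in all 14 alternatives. Gadd45a, a stress gene linked to active demethylation, rose to 28.2 ± 2.12 CPM in the KO-labelled group, against 12.3 ± 1.94 CPM in the WT-labelled group (adjusted p = 0.0025). Gadd45b rose to 53.4 ± 8.86 CPM, against 17.9 ± 8.74 CPM, but lost its call without any KO-labelled library or WT-labelled replicate 3 (adjusted p = 0.0502 to 0.070). Its call held in 9 of 14 alternatives. Neil1, a DNA glycosylase gene, had 5.40 ± 0.75 and 10.2 ± 2.78 CPM in the KO-labelled and WT-labelled libraries (edgeR adjusted p = 0.045). That call ended on omitting each library in turn but WT-labelled replicate 1 (0.087 to 0.17). It was also lost with limma-voom (0.065) and library totals (0.052), and held in 4 of 14 alternatives. Tdg, the glycosylase gene that removes oxidised marks, was at 0.74 ± 0.37 and 0.70 ± 0.15 CPM. Words shared with other transcripts were counted only for the 10 genes, so loss of Tdg reads to similar sequences was not checked.

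Genes that supply or compete for the substrates were mostly not called in the fit over 6 libraries. Of 16 genes around 2-oxoglutarate 0 rose and 1 fell (6.25%, beside 27.3% of all tested genes). At an unadjusted p under 0.05, 0 were higher and 1 lower. Both DESeq2 and limma-voom called 0 higher, and they called 1 and 0 lower. The member that fell, Bcat1, a cytosolic aminotransferase gene, had 0.54, 1.08 and 1.91 CPM in the KO-labelled group, against 13.6, 3.79 and 4.02 CPM in the WT-labelled group (edgeR adjusted p = 0.029). The Bcat1 call ended on omitting KO-labelled replicate 1 or 2 (adjusted p = 0.10 and 0.097) and with limma-voom (0.052). It held in 9 of 14 alternatives. In replicates 2 and 3 alone 7 of the 16 members of this list were called higher and 1 lower, beside 52.9% of all tested genes called in that fit. The counts were also 7 and 1 when WT-labelled replicate 1 was omitted, beside 42.8%. Idh3a, Idh3b and Idh3g, the NAD-dependent isocitrate dehydrogenase genes, had log2 fold changes of 0.10, 0.18 and -0.23 and did not pass. Of 16 genes of the methyl donor cycle 0 rose and 1 fell (6.25%, beside the same 27.3%). At an unadjusted p under 0.05, 1 gene of this list was higher and 3 were lower. DESeq2 called 1 higher and 2 lower, beside 33.8% of all tested genes. In replicates 2 and 3 alone 7 of the 16 members of the donor list were called higher and 4 lower, beside 52.9% of all tested genes.

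**Figure D5:**
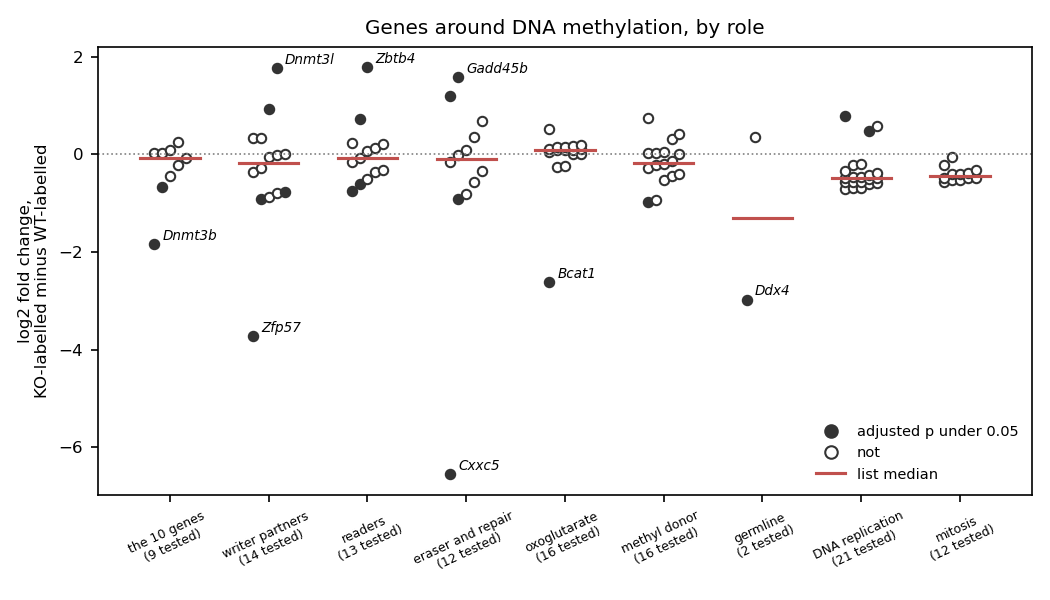
Log2 fold change, KO-labelled minus WT-labelled, of each tested gene by role, filled where the adjusted p is under 0.05, with the list median as a bar. Called genes lie on both sides of 0 among writer partners, readers and erasers (Dnmt3l at 1.78, Zfp57 at -3.72, Cxxc5 at -6.55), while the oxoglutarate and donor lists hold 1 called gene each.

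Germline genes whose promoters are held silent by DNA methylation in mouse somatic cells stayed low in both groups. Of 23 listed, 21 averaged under 1 CPM in both groups, 12 of them with no read in any library, among these Mael, Tex101 and Taf7l. Dazl had 0 to 0.23 CPM in the KO-labelled and 0 to 0.042 CPM in the WT-labelled group. The 2 exceptions were Brdt and Ddx4. Brdt, a testis bromodomain gene, had 1.64 ± 0.55 CPM in the KO-labelled and 1.29 ± 1.00 CPM in the WT-labelled group and was not called (edgeR adjusted p = 0.71). Ddx4, a germ cell helicase gene, fell and had 4.01, 0.69 and 1.25 CPM in the KO-labelled group, against 15.0, 19.9 and 12.2 CPM in the WT-labelled group. The Ddx4 log2 fold change was -2.97 (SE 0.62; edgeR adjusted p = 0.012). Omitting KO-labelled replicate 3 ended the Ddx4 call (adjusted p = 0.052). DNA methylation itself was not measured in these libraries.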

How the data were processed

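RNA from 6 samples was made into TruSeq Stranded mRNA libraries, per the labels' protocols. The authors deposited, for each library, the unnormalized count of reads at each gene symbol. Per the submitters' processing notes, FastQC 0.11.7, HISAT2 2.0.5, featureCounts 1.5.2 and mm10 were used; which annotation, strand setting and multi-mapping rule applied is not given in the sources used here, so reads from antisense neighbours (Dnmt3aos at Dnmt3a, Gm42567 at Tet2) may not be told apart.

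Differences were tested with edgeR 4.0.16 under R 4.3.3 (TMM, default low-count filter leaving 12126 genes, robust quasi-likelihood test, Benjamini-Hochberg adjustment over all tested genes at 0.05), KO-labelled minus WT-labelled. CPM and RPKM use TMM-scaled library sizes, and RPKM the merged exons of GENCODE M21. Intervals are 95%. Shared 31-base words were counted over GENCODE transcripts. DESeq2 1.42.0, limma-voom (limma 3.58.1), other scalings, no filter, a block and omitted or summed libraries were alternatives. Only the default edgeR, limma-voom and DESeq2 fits were tested on simulated counts, with the same dispersion for every gene and no outlying replicate. The other alternatives were not. The 10 genes, the lists and the alternatives were chosen with earlier results of these data known. Named beyond the 10 genes were the called genes with the smallest p in each list, at most 4 (or, in a list with none, its 2 most abundant genes), the 3 genes nearest in profile to the called gene of the 10 with the largest change, and Tnfaip3; others, such as Cdca7l, Tdg, Dazl, Brdt, Gapdh, the Idh3 genes and cell markers, were added after values were seen. Protein sequences were not used here, and 1 called gene of the methyl donor list is not reported here. Reads are not independent molecules, and 3 counts served as the detection floor for counting error only.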

Additional observations from a re-analysis of the deposited data

How the results depend on the processing

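Dnmt3b kept its direction and call in all 14 alternatives (log2 fold change -2.05 to -1.33), and Dnmt1 and Mbd2 kept their direction without passing in any. Leaving out each library in turn gave 1 to 3 of the 10 genes lower (3 only with Tet1 tested), 939 to 2712 of all genes higher and 916 to 2568 lower, and 4 to 18 of the pooled pathway genes higher and 4 to 17 lower. Over those omissions the log2 fold change ranged from -0.42 to 0.19 for Uhrf1, -0.30 to 0.35 for Tet2, -0.0049 to 0.095 for Tet3 and -0.094 to 0.16 for Idh1. Replicates 2 and 3 alone gave 1 of the 10 genes higher, 3149 of all genes higher and 3309 lower, 24 pathway genes higher and 20 lower, and reversed values of 0.29 for Uhrf1, -0.14 for Tet2 and -0.087 for Idh1. With replicates 2 and 3 summed in each group, 1 of the 10 genes was lower, 543 of all genes were higher and 518 lower, 2 pathway genes were higher and 2 lower, and Dnmt3a reversed to 0.041; fewer samples entered that fit. A replicate block left 1 of the 10 genes lower (Idh2 lost its call, adjusted p = 0.082), 989 of all genes higher and 1034 lower, and 4 pathway genes lower. Deviations of same-numbered libraries were not correlated beyond 0.1 over 12126 genes (-0.006, -0.055 and 0.052), so the numbers were not taken as pairs, although Gapdh was high in both replicate 1 libraries. The causes of the other changes were not tested. Library totals, upper-quartile scaling, DESeq2, limma-voom and no filter each gave 2 of the 10 genes lower and 0 higher. Depth limits Tet1, with 2 to 52 reads per library, and the germline genes.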
